A study of Mus musculus with 60 samples.

Results

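The tissue-specific splicing regulators Rbfox1, Qk, Celf1 and Ptbp1, were examined in the striatum of 60 HS-CC mice, a stock bred from the inbred founders of the Collaborative Cross. The genes were picked by name, not by a measured value. They are 4 of 9066 genes in the gene table, and their 56 exon rows are part of 114691 exon rows in the exon table. RNA with a polyA tail was sequenced from hand-dissected striatum of 1 mouse per library. The labels class each mouse by the catalepsy phenotype (a state of behavioural immobility) as non-responder (13 females, 17 males) or responder (15 females, 15 males). By the study's methods the mice descend from generations selected for their response to haloperidol, a dopamine receptor blocker. Age, dose and the time between test and tissue collection are not given in the sources used here. The gene value is the count of reads, scaled by an upper-quartile factor, and is called the level below. An exon row is named by its place in its gene from 5′ to 3′ (Qk row 7), and its share is its part of all exon counts of the gene.

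Splicing regulators are RNA-binding proteins that decide which exons, and which ends, a transcript keeps. Rbfox1 is made mainly in neurons and muscle and binds GCATG. Qk encodes the quaking (QKI) proteins of glia, which are needed for myelin transcripts and occur as forms with different C-terminal ends. Celf1 binds GU-rich RNA in many tissues. Ptbp1 binds pyrimidine tracts and holds back neural exons. It is low in neurons, where its paralog Ptbp2 replaces it.

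The coding sequences of known alternative exons of Rbfox1 and Ptbp1 are shown because the exon rows are read against them. They come from the GENCODE M21 transcripts of build GRCm38, 5′ to 3′ on the gene's strand. Capitals mark the alternative exon and lower case the 12 coding bases on either side. In Rbfox1, the 40-base exon (chr16:7363865-7363904, plus strand) is known as the brain exon and the 43-base exon (chr16:7369801-7369843) as the muscle exon. The 93-base exon (chr16:7292185-7292277) encodes part of the RNA recognition motif. In Ptbp1, the 78-base exon (chr10:79860117-79860194, plus strand) lengthens the linker between RNA recognition motifs, and loss of the 34-base exon (chr10:79862014-79862047) shifts the reading frame.
Rbfox1 40-base exon: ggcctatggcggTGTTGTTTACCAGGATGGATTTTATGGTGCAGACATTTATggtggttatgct
Rbfox1 43-base exon: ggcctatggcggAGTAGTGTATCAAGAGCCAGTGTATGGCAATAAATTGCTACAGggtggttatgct
Rbfox1 93-base exon: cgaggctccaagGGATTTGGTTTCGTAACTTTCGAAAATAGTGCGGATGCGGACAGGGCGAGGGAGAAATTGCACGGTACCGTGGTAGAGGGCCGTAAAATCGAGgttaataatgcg
Ptbp1 78-base exon: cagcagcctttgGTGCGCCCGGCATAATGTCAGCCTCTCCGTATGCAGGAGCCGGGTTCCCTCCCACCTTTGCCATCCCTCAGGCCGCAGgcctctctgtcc
Ptbp1 34-base exon: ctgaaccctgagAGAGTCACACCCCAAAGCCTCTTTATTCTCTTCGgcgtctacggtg

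Qk transcripts share an exon of 300 bases and then part into different ends on the minus strand of chromosome 17. Capitals mark the coding bases after that exon, stop codon included, and lower case its last 12 bases. The end of Qk-206 (chr17:10214169-10214194) encodes the last 8 residues, counting the codon at the junction, that of Qk-201 (chr17:10215431-10215474) 14 residues, and that of Qk-204 (chr17:10209615-10213433, in 2 exons) 30 residues. These ends are known as QKI-6, QKI-7 and QKI-5. QKI-5 is the nuclear form.
Qk-206 end: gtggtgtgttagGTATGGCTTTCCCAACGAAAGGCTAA
Qk-201 end: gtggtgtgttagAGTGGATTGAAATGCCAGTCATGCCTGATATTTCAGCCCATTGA
Qk-204 end: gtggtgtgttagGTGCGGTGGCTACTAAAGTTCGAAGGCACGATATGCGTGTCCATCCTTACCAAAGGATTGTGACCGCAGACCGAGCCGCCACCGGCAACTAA

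All 4 genes were detected in every mouse. Library depth, as whole reads recovered from the gene values, was 4913122 to 21872744 reads, with 17 shallow libraries (up to 9507322) and 43 deep ones (from 12051239) and none between. Of the shallow libraries 8 were from responders and 9 from non-responders. The strength of 3′ bias was scored per mouse from 4077 other genes, as the median tilt of their exon counts towards the 3′ end (log2 units). It was highest in mouse 63 (1.56), mouse 5 (0.931), mouse 4 (0.704) and mouse 62 (0.484), against a median of -0.0247. The striatal markers Ppp1r1b, Drd2, Adora2a and Penk were present in all mice, with mean levels of at least 4665. The cortical marker Tbr1 (219 to 3089) was also present and varied widely between mice.

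Rbfox1 (ENSMUSG00000008658, chr16:5885355-7411526, plus strand) had a level of 7879 ± 1148 (SD, n = 60). The lowest value was 5288 (mouse 44), the median 7789 and the highest 10141 (mouse 15). Qk (ENSMUSG00000062078, chr17:10202601-10319854, minus strand) had a level of 11485 ± 1973, from 7223 (mouse 58) through a median of 11288 to 16974 (mouse 29). Celf1 (ENSMUSG00000005506, chr2:90940382-91019497, plus strand) stood at 7275 ± 883, from 4630 (mouse 63) through 7363 to 9278 (mouse 15). Its 3 lowest mice were 63, 62 and 5, which are among the 4 of strongest 3′ bias. Ptbp1 (ENSMUSG00000006498, chr10:79854427-79864771, plus strand) was at 256 ± 41.8, from 179 (mouse 34) through 248 to 401 (mouse 42), and rested on 105 to 419 reads per mouse. Its 3 highest mice (42, 56 and 46) were all shallow libraries. The coefficient of variation was lowest for Celf1 (12.1%) and highest for Qk (17.2%), with Rbfox1 at 14.6% and Ptbp1 at 16.3%.

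Levels of different genes were compared per length, over 3 or 4 coding exons of each gene with at least 117 bases. These exons differed between genes in length and in distance from the 3′ end, and effects of either on the count per base were not removed. The terminal exon after them has up to 6260 bases in Celf1 and 1836 in Rbfox1. The exon counts per 100 bases were 195 ± 42.1 for Qk, 194 ± 44.6 for Rbfox1, 71.4 ± 16.7 for Celf1 and 16.1 ± 3.18 for Ptbp1 (SD, n = 60). Ptbp1 was the lowest of the 4 in 60 of 60 mice. Celf1 was below both Rbfox1 and Qk in 60 of 60 mice. Rbfox1 and Qk did not separate, since Rbfox1 was the higher in 31 mice and Qk in 29.

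The first comparison asked whether the regulators differed between responders and non-responders. None of the 4 did by limma with Benjamini-Hochberg adjustment over 8535 genes, of which 0.105% were called. Rbfox1 was 7952 ± 1285 (SD, n = 30) in responders, from 5288 to 10141, and 7806 ± 1009 (n = 30) in non-responders, from 5454 to 9657. The groups overlapped almost fully, and the log2 difference on the log2(level + 1) scale was 0.01 (SE 0.055, adjusted p = 0.999). Qk was 11670 ± 1995 against 11301 ± 1967, a difference of 0.04 (SE 0.064, adjusted p = 0.999). Celf1 was 7207 ± 915 against 7342 ± 861, with a difference of -0.03 (SE 0.049). Ptbp1 was 254 ± 40.1 against 257 ± 44.1, with a difference of -0.01 (SE 0.058). The 95% intervals of the fold between groups ran from 0.936 to 1.09 for Rbfox1, 0.945 to 1.12 for Qk, 0.917 to 1.05 for Celf1 and 0.920 to 1.08 for Ptbp1. These intervals are not adjusted for the number of genes tested, and they are not limits of what the comparison could call.

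**Figure D1:**
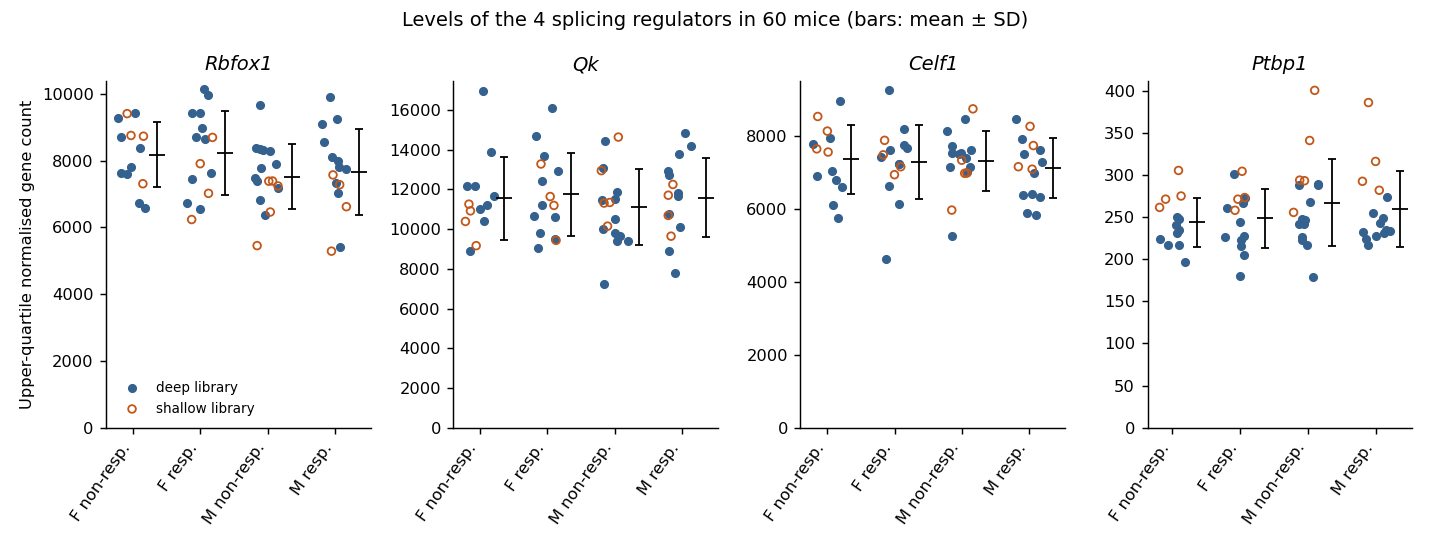
Normalised gene count of each regulator (vertical axis) by sex (F female, M male) and catalepsy phenotype, with 1 point per mouse and the mean ± SD of the group beside it. The 4 groups overlap for every gene, and for Ptbp1 the open symbols of the 17 shallow libraries lie at 256 and above while the 43 deep libraries range from 179 to 301.

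The sexes and their interaction with the phenotype gave the same picture. Rbfox1 was 7588 ± 1110 in 32 males and 8210 ± 1118 in 28 females. The log2 difference of males against females was -0.12 (SE 0.055) with an unadjusted p = 0.0402 and an adjusted p = 1.0 by limma. Ptbp1 was 264 ± 47.8 in males and 247 ± 32.0 in females, with a difference of 0.09 (SE 0.058, unadjusted p = 0.137 by limma). Qk and Celf1 differed by -0.04 and -0.02. Over all genes 0.0351% were called for sex and 0% for the interaction, where 48 genes had an unadjusted p under 0.05 by limma and 44 by edgeR. The interaction estimates of the regulators were from -0.06 (Ptbp1) to 0.04 (Qk).

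Of 32 other tissue-specific splicing regulators listed, 22 were in the gene table. None of the 22 was called for phenotype or sex by limma. The log2 differences between responders and non-responders ran from -0.17 to 0.11 with a median of 0.02. The nearest paralogs were no exception. Rbfox3 (the neuronal antigen NeuN) differed by -0.06 (SE 0.057), Rbfox2 by -0.03 (SE 0.032), Celf2 by -0.04 (SE 0.044) and Ptbp2, the neuronal form of Ptbp1, by 0.04 (SE 0.046).

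Ptbp1 differed with the depth of the library. Its level was 299 ± 41.9 in the 17 shallow libraries, from 256 to 401, and 239 ± 27 in the 43 deep ones, from 179 to 301. The log2 difference was 0.32 (SE 0.049, adjusted p = 3.7e-07 by limma) and 0.34 (SE 0.056) with 3′ bias as a covariate. Rbfox1 was lower in shallow libraries, at 7338 ± 1141 against 8092 ± 1091 (difference -0.15, SE 0.058, adjusted p = 0.0316 by limma), and no longer past the threshold with 3′ bias as a covariate (adjusted p = 0.186). Qk and Celf1 were not called. This comparison calls 53% of all genes, or 18.7% with 3′ bias as a covariate, so a call in it is common. The labels do not say why depth differs. Celf1 fell along the 3′ bias score, by 0.38 log2 units per unit of score (SE 0.066, adjusted p = 8.92e-07 by limma), in a comparison that calls 77.0% of genes.

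The regulators varied with each other across mice, and 4 of the 6 pairs were related. The share of other gene pairs that would be related was not computed. Whether these relations are particular to the regulators was therefore not tested. Rbfox1 and Ptbp1 levels were inversely correlated over 60 mice (Pearson r = -0.54, Spearman rho = -0.47, p = 1e-05, the smallest that 100000 permutations can give, and adjusted p = 6e-05 over 6 pairs). The relation held within the 43 deep libraries (r = -0.39, adjusted p = 0.0197) and within the 17 shallow ones (r = -0.63, adjusted p = 0.0196, permutation test). Rbfox1 and Qk were also inverse (r = -0.42, rho = -0.43, p = 0.00082, adjusted p = 0.00246), with r = -0.45 in deep and -0.54 in shallow libraries. Mouse 29, with the highest Qk, had an Rbfox1 level of 6589, the lowest of the female non-responders.

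Rbfox1 and Celf1 rose together (r = 0.38, rho = 0.44, p = 0.00218, adjusted p = 0.00436 by permutation). Without the 4 mice of strongest 3′ bias r was 0.57, and it was 0.46 in deep and 0.50 in shallow libraries (adjusted p = 0.0589 in the latter). Qk and Celf1 were inverse (r = -0.34, rho = -0.40, p = 0.00863, adjusted p = 0.0129), with r = -0.26 in deep (adjusted p = 0.148) and -0.77 in shallow libraries. No relation was seen for Qk and Ptbp1 (r = 0.11, adjusted p = 0.471) or for Celf1 and Ptbp1 (r = 0.02, adjusted p = 0.875). Leaving out the 2 mice farthest from the median of the first gene gave r of -0.52 for Rbfox1 and Ptbp1, -0.43 for Rbfox1 and Qk, 0.36 for Rbfox1 and Celf1 and -0.26 for Qk and Celf1.

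**Figure D2:**
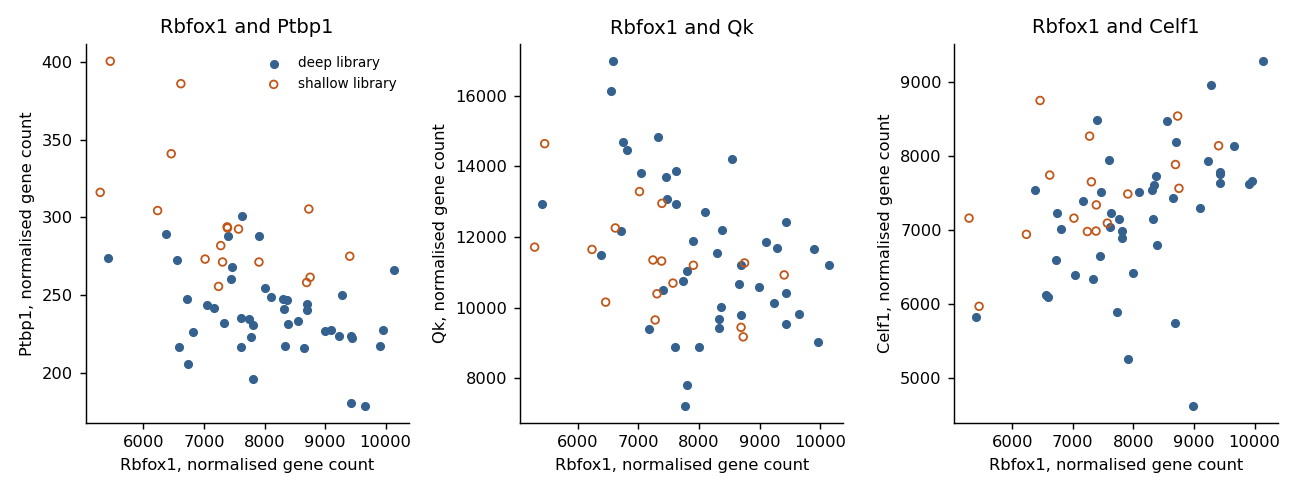
Level of Ptbp1, Qk and Celf1 (vertical axes, normalised gene count) against that of Rbfox1 (horizontal axis) with 1 point per mouse, filled for deep and open for shallow libraries. Ptbp1 and Qk fall as Rbfox1 rises (r = -0.54 and -0.42 over 60 mice) and Celf1 rises with it (r = 0.38), with mouse 63 at the foot of the Celf1 panel.

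The levels were next set against marker lists for 8 cell types, each scored as the mean z-score of log2(level + 1) of its genes. In bulk tissue, fewer cells of a type and less RNA per cell cannot be told apart. Of 32 relations tested, 18 passed an adjusted p of 0.05. The share that would pass for other genes was not computed. Qk rose with the astrocyte list and fell along the neuron list. Its r was highest with 9 astrocyte markers (among them Slc1a2, Slc1a3, Gja1 and Aldoc), at r = 0.78 and rho = 0.78 (p = 1e-05, adjusted p = 6.4e-05), and r was 0.79 in deep and 0.81 in shallow libraries. With 8 microglia markers r was 0.42 (adjusted p = 0.00204), with 7 oligodendrocyte markers, which include the myelin genes Mbp and Mobp, 0.36 (adjusted p = 0.0101), and with 3 endothelial and mural markers 0.31 (adjusted p = 0.0301). In deep libraries only, the relations with oligodendrocyte markers (r = 0.31, adjusted p = 0.0844) and endothelial and mural markers (r = 0.28, adjusted p = 0.124) were no longer past the threshold. With the 4 oligodendrocyte precursor markers r was 0.10 (adjusted p = 0.573). Qk fell along the 10 neuron markers (r = -0.70, adjusted p = 6.4e-05) and the 4 cortical neuron markers (r = -0.54). With the 8 medium spiny neuron markers, the main neurons of the striatum, it had no such relation (r = -0.14, adjusted p = 0.399 by permutation).

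For neurons and astrocytes Rbfox1 had the opposite signs. It rose with the neuron markers (r = 0.65, rho = 0.62, adjusted p = 6.4e-05 by permutation), of which its paralog Rbfox3 is one, with r = 0.59 in deep and 0.75 in shallow libraries. It also rose with the cortical neuron markers (r = 0.51) and the medium spiny neuron markers (r = 0.32, adjusted p = 0.0276, and 0.0557 with 3′ bias removed) and fell along the astrocyte markers (r = -0.41, adjusted p = 0.00243).

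Celf1 rose with the neuron markers (r = 0.45) and fell along astrocyte (r = -0.58) and microglia markers (r = -0.58, and -0.39 without the 4 mice of strongest 3′ bias). It also fell along oligodendrocyte markers (r = -0.41, adjusted p = 0.00243) and rose with oligodendrocyte precursor markers (r = 0.42, adjusted p = 0.00204). Both of these were lost without the 4 mice, at r = -0.23 (adjusted p = 0.156) and r = 0.21 (adjusted p = 0.203). With medium spiny neuron markers, r was 0.27 over all mice (adjusted p = 0.0639) and 0.58 without the 4 mice (adjusted p = 6.4e-05).

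Ptbp1 fell along neuron (r = -0.47, adjusted p = 0.00056) and cortical neuron markers (r = -0.46), but not along medium spiny neuron markers (r = 0.05, adjusted p = 0.818 by permutation). It rose with the oligodendrocyte precursor markers over all mice (r = 0.42, adjusted p = 0.00204), but not past the threshold in deep libraries only (r = 0.30, adjusted p = 0.0867). With oligodendrocyte markers r was 0.11 over all mice (adjusted p = 0.504), 0.56 in deep libraries (adjusted p = 0.00048) and 0.44 with depth removed (adjusted p = 0.000827). Its r with astrocyte markers was -0.04 (adjusted p = 0.835).

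The marker scores themselves overlapped between phenotypes. The neuron score ran from -1.10 to 0.889 in responders and from -1.56 to 1.15 in non-responders, and the astrocyte score from -1.33 to 1.34 and from -0.968 to 1.26. Every marker in the table was above 0 in all mice. The part of cell composition in the relations between the regulators was not tested.

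**Figure D3:**
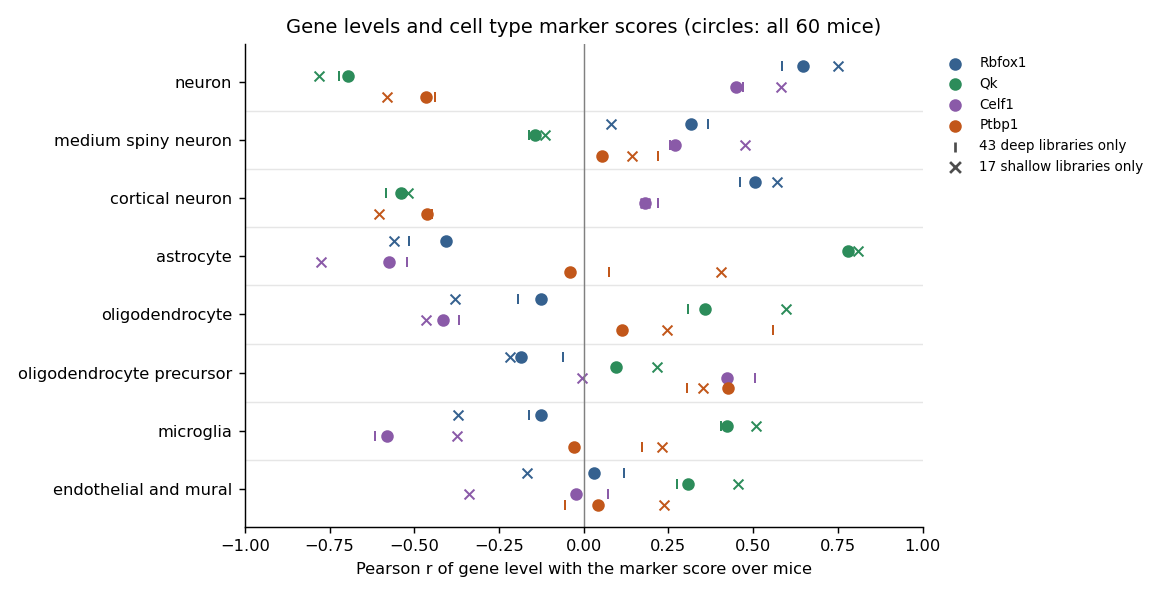
Pearson correlation over mice (horizontal axis) between the level of each regulator (colours) and the score of each marker list (rows), for all 60 mice (circles), deep libraries (bars) and shallow libraries (crosses). Qk lies at 0.78 for astrocytes and -0.70 for neurons, and Rbfox1 at -0.41 and 0.65.

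The genes whose log2(level + 1) was most like that of each regulator over 60 mice, among genes averaging at least 500, were the following. For Rbfox1 they were Tspyl1 (r = 0.80), Extl2 (0.77), Nckap1 (0.77), Sybu (0.75) and Add1 (0.74). For Qk they were Kif5b (r = 0.86), Myo6 (0.85), Asrgl1 (0.83), Arhgef26 (0.83) and Lims1 (0.82). All of these had r of at least 0.688 within both deep and shallow libraries. For Celf1 they were Tpr, a nuclear pore protein (r = 0.90), Plppr4 (0.90), the calcium pump Atp2b1 (0.89), Tln2 (0.89) and Selenoi (0.89). For Ptbp1 they were the dynamin Dnm2 (r = 0.71), Plxnb2 (0.67), Git2 (0.65), the nuclear RNA Malat1 (0.65) and ENSMUSG00000045999 (0.64). For Malat1 r was 0.18 within deep and 0.11 within shallow libraries, and for ENSMUSG00000045999 it was 0.15 and 0.07.

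Among the paralogs, Rbfox3 had r = 0.55 with Rbfox1 and -0.77 with Qk, while Rbfox2 had r = -0.05 with Rbfox1 and 0.75 with Celf1. Rbfox2 with Rbfox1 was -0.04 in deep and 0.40 in shallow libraries, and Rbfox2 with Celf1 was 0.55 with 3′ bias removed. Celf2 followed Celf1 (r = 0.81, and 0.73 with 3′ bias removed). Ptbp2 had r = -0.45 with Ptbp1 over all mice, -0.24 in deep and -0.18 in shallow libraries. These values are descriptions across 60 mice on the log2 scale.

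The exon rows showed the inside of each gene. Rbfox1 had 18 rows, Qk 8, Celf1 16 and Ptbp1 14, and 32 of the 56 averaged at least 10 counts. Counts lay mostly at the 3′ end. Rbfox1 row 18, its terminal exon, held a median share of 84.7% (81.3% to 96.3% over mice), Celf1 row 16 88.9% (86.1% to 97.4%), Qk row 7 72.5% (67.6% to 83.8%) and Ptbp1 row 14 46.9% (34.4% to 67.5%). The next shares were Qk row 8 at 12.7%, Rbfox1 row 5 (240 coding bases) at 8.44% and Ptbp1 row 12 (217 bases) at 15.5%. Among rows averaging at least 10 counts with a mean share of at least 1%, the share varied most from mouse to mouse in Ptbp1 row 5 (coefficient of variation 0.286), Qk row 1 (0.267) and Qk row 2 and Celf1 row 12 (0.236 and 0.235). Ptbp1 row 5 averaged 19.15 counts, with a lowest value of 7. The parts of low counts and of 3′ bias in this variation were not tested. The ranking therefore does not measure how variably these exons were used.

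**Figure D4:**
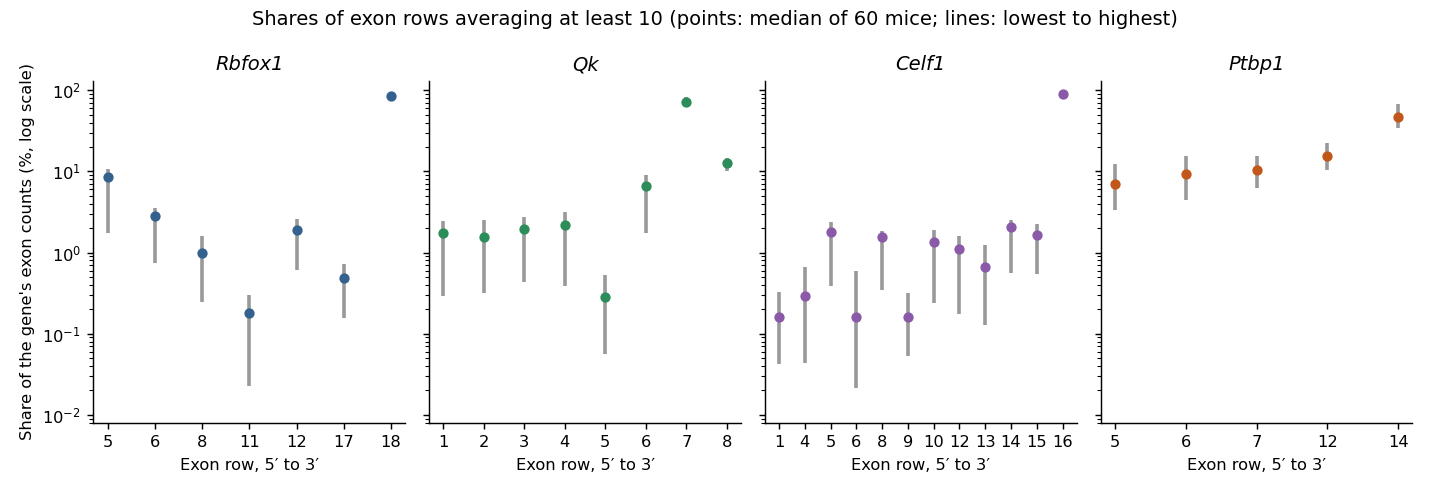
Share of the gene's exon counts (vertical axis, %, log scale) in each exon row that averaged at least 10 counts, in order from 5′ to 3′ (horizontal axis). Points are the median of 60 mice and lines run from the lowest to the highest mouse, and the last row held 84.7% in Rbfox1, 88.9% in Celf1 and 46.9% in Ptbp1, while in Qk row 7 held 72.5%.

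Short exons were scarcely counted. Of the rows whose start fits an annotated exon of these genes by its spacing to the neighbours, 10 had at most 65 bases. All 10 averaged under 10 counts, and 5 of them were at 0 in all 60 mice. The rows include the exons printed above. The 40-base brain exon of Rbfox1 (row 13, start 7363958 on chromosome 16 of mm9) averaged 2.12 counts, with a highest value of 13, and was at 0 in 11 mice. The 43-base muscle exon (row 14, start 7369894) averaged 1.23, with a highest value of 8, and was at 0 in 20. The 54-base rows 7 and 10 were at 0 throughout, although 6 and 5 of 7 coding transcripts hold them. The 34-base exon of Ptbp1 (row 9) averaged 5.5 counts and its 78-base exon (row 8) 5.9. These counts are too low to compare the inclusion of either exon between mice. The 93-base exon of Rbfox1 (row 8) averaged 77.9 counts, or 0.838 per base, against 1.503 per base in the 144-base row 6. Over the matched rows of the 4 genes, the median per base was 0.165 for 66 to 99 bases and 0.522 for 100 or more. The contrast of rows 8 and 6 therefore does not measure inclusion of the 93-base exon.

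No exon share of the 4 genes differed between phenotypes or sexes. The ratio of each row to the rest of its gene was tested by limma over 67134 rows, of which 0.0209% were called for phenotype and 0% for sex, where 1755 rows had an unadjusted p under 0.05. All 32 rows of the regulators were tested and 0 were called in either comparison. The smallest unadjusted p for phenotype was that of Ptbp1 row 7 (0.0306 by limma, log2 difference -0.18, SE 0.083, adjusted p = 0.999). Between shallow and deep libraries, with 3′ bias as a covariate, 8 of 32 rows were called where 17.9% of all rows were. Ptbp1 row 14 was lower in shallow libraries (-0.33, SE 0.059, adjusted p = 3.2e-05 by limma) and row 5 higher (0.37, SE 0.115, adjusted p = 0.0193).

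The last 2 Qk rows lie in different ends of the gene. Placed by its distance to the shared exon of 300 bases, row 7 (start 10403055 on chromosome 17 of mm9) falls in the terminal exon of Qk-201 and Qk-206, and row 8 (start 10399336) falls in that of Qk-204. Row 7 thus stands for the QKI-6 and QKI-7 ends and row 8 for the QKI-5 end, with the limit that the table gives no row ends and that the small coding exon of Qk-204 lies inside the terminal exon of the other 2. Row 7 had 5.89 ± 0.707 times the count of row 8 (SD, n = 60), from 4.93 (mouse 64) through a median of 5.73 to 7.53 (mouse 27). All 60 mice had a higher count in row 7 than in row 8. The counts are per row and not per base. The annotated terminal exons have 4006 (Qk-206), 5296 (Qk-201) and 7031 bases (Qk-204), and the part each row covers is not known. The size of the ratio therefore does not measure how much of each end was made. The ratio was 6.16 ± 0.795 in female and 5.75 ± 0.577 in male non-responders and 5.89 ± 0.762 in female and 5.81 ± 0.714 in male responders. The groups overlapped. It was 6.05 ± 0.752 in deep and 5.50 ± 0.364 in shallow libraries and from 6.44 to 6.81 in the 4 mice of strongest 3′ bias.

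This ratio moved with the astrocyte markers. The log2 ratio had r = 0.73 and rho = 0.70 with the astrocyte score over 60 mice (p = 1e-05, adjusted p = 8e-05 over 8 lists by permutation) and 0.71 without the 2 mice farthest from the median score. It was 0.78 in deep libraries and 0.20 in shallow ones (adjusted p = 0.692), and the difference between the depths was not tested. With neuron markers r was -0.42 (adjusted p = 0.00259), with microglia markers 0.47 (adjusted p = 0.00068) and with oligodendrocyte markers 0.34 (adjusted p = 0.0183). With 3′ bias removed, r was 0.71 for astrocytes and 0.21 for oligodendrocytes (adjusted p = 0.138).

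Over all 67134 exon rows, with sex, phenotype, 3′ bias and depth as covariates, 0.642% were called along the astrocyte score. Qk rows 7 and 8 were the only 2 of the 32 rows of the regulators among them. Each row is measured against the rest of its gene, so calls of rows in the same gene are not independent. Row 7 rose by 0.09 log2 units per SD of the score (SE 0.017, adjusted p = 0.00121 by limma) and row 8 fell by 0.10 (SE 0.015, adjusted p = 9.09e-06). Both kept their direction and their call in deep libraries only and without the 4 mice of strongest 3′ bias. Along the neuron score, which called 3.29% of rows, 5 of 32 were called. Qk row 7 fell by 0.09 and row 8 rose by 0.07, Rbfox1 row 6 rose by 0.07, and Rbfox1 row 18 and Ptbp1 row 5 fell by 0.07 and 0.16. In deep libraries only, both Qk rows were still called, and Rbfox1 row 6 (adjusted p = 0.30), Rbfox1 row 18 (0.0757) and Ptbp1 row 5 (0.0846 by limma) were not. Along the cortical neuron score, which called 1.16% of all rows, none of the 32 was called by limma, and 7 had an unadjusted p under 0.05. None was called by limma along the medium spiny neuron (0.0328% of all rows called), oligodendrocyte (0.127%), oligodendrocyte precursor (0.0343%), microglia (0.0536%) or endothelial and mural score (0.00149%), where 2, 1, 1, 3 and 1 of the 32 had an unadjusted p under 0.05.

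**Figure D5:**
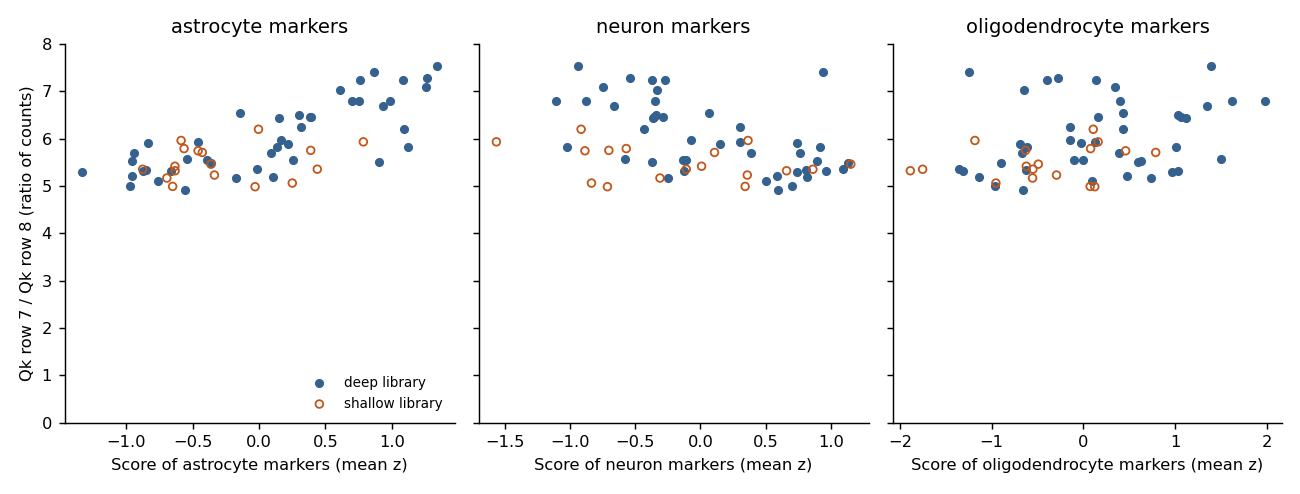
Ratio of Qk row 7 to Qk row 8 in each mouse (vertical axis) against the score of astrocyte, neuron and oligodendrocyte markers (horizontal axes, mean z-score), filled for deep and open for shallow libraries. The ratio rises with the astrocyte score (r = 0.73 over 60 mice, 0.78 in deep and 0.20 in shallow libraries).

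The variation of exon profiles between mice was also compared among the 4 regulators. Other gene pairs were not compared, so whether the values are particular to these genes was not tested. For each gene, the cosine distance between exon profiles was taken for all 1770 pairs of mice, and the distances of 2 genes were compared by a Mantel correlation. It was 0.85 for Rbfox1 and Qk, 0.82 for Rbfox1 and Celf1, 0.68 for Qk and Celf1, 0.49 for Rbfox1 and Ptbp1, 0.46 for Celf1 and Ptbp1 and 0.39 for Qk and Ptbp1. Each adjusted p was at most 0.00013 over 6 pairs (100000 permutations of mice, and 10000 for the other settings). Much of this moved with the 4 mice of strongest 3′ bias. Without them the values were 0.66 for Rbfox1 and Qk and 0.24 for Rbfox1 and Celf1, and for Qk and Ptbp1 0.06 (adjusted p = 0.373 by permutation). With the distance in 3′ bias held fixed, Rbfox1 and Qk kept 0.71, Qk and Celf1 0.24 and Celf1 and Ptbp1 0.01 (adjusted p = 0.81). Rbfox1 and Qk had the highest value in each of these 3 settings, but not with the Canberra distance, which weights differences relative to the size of each row. There Qk and Celf1 were highest at 0.75 and Rbfox1 and Qk had 0.35, or 0.11 without the 4 mice.

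The last question was whether exon shares of other genes moved with the level of a regulator. Every exon row was set against each level in turn, with sex, phenotype and 3′ bias as covariates. Along Qk 2.38% of rows were called, along Rbfox1 0.423%, along Celf1 0.109% and along Ptbp1 5.44%. Lists of genes reported as targets, compiled from general knowledge, were read from the same fits. Of 228 tested rows of 13 Qk targets, 8 (3.51%) were called. A row of Bin1, an endocytic and myelin-associated adaptor, rose by 0.28 log2 units per SD of Qk level (start 32589354 on mm9, SE 0.052, adjusted p = 0.000718 by limma). In Mobp, a myelin gene, 1 row fell by 0.11 (start 120082269) and another rose by 0.08 (start 120088643), and a row of the cytoskeletal linker Macf1 (start 123148250) rose by 0.13. With oligodendrocyte, astrocyte and cortical scores as covariates, 1 of the 228 rows (0.439%) was called, where 1.03% of all rows were.

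Of 343 rows of 18 Rbfox1 targets, 5 (1.46%) were called. Rows of Camta1 (start 151154562, -0.32 log2 units per SD of Rbfox1 level, SE 0.071, adjusted p = 0.0174 by limma), Camk2g (start 21573759, -0.34), Epb41l3 (start 69631054, -0.25) and Tsc2 (start 24743169, -0.18) fell as Rbfox1 rose. With the cell type scores as covariates 0 of the 343 rows were called, and 0 of all 67134 rows. In deep libraries only, 0 of the 343 rows were called, where 0.0938% of all rows were. Of 134 rows of 12 Celf1 targets 0 were called, where 73 of all 67134 rows (0.109%) were. At so low a share, 0 calls in 134 rows does not set the targets apart from other rows. At the looser threshold of an unadjusted p under 0.05 by limma, 6821 of all rows passed. Of 214 rows of 14 Ptbp1 targets, 18 (8.41%) were called, among them rows of Pkm, the pyruvate kinase gene, and of Kif1b and Shtn1. With the depth of the library as a covariate, 0 of these 214 rows and 0 of all rows were called along Ptbp1, and depth and Ptbp1 level moved together as given above.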

How the data were processed

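Striatal polyA(+) RNA of 60 mice was sequenced by the study on the Illumina platform. Per the labels and the study's methods, reads were aligned by the authors with Bowtie 0.12.7, an aligner that does not split reads, to mm9 (NCBI m37) and counted on merged ("union") exons of Ensembl gene models, then scaled with edgeR 3.4.2 upper-quartile factors. The deposited gene values are a signal (counts times a factor per library). Whole reads were recovered from them, with 100% of values within 0.01 of a whole read. The deposited exon values are the same kind of count rounded to whole numbers and were treated as a score, so no count model was run on them. How the factors were computed for exons is not given in the sources used here.

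Levels were tested with limma 3.58.1 (trend) on log2(level + 1) for genes averaging at least 10, with edgeR 4.0.16 on recovered reads as an alternative. Exon shares were tested as log2((row + 0.5)/(rest of gene + 0.5)) for rows averaging at least 10. Intervals of folds used the normal approximation. Correlations used 100000 permutations, two-sided, in Python 3.11.15 with numpy 2.4.6. Groups came from the labels. Exon rows were matched to GENCODE M21 exons by the spacing of their starts, with no conversion of coordinates, and 97.7% of gene identifiers had a symbol. Statistics were tested on simulated data.

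The 4 genes, the marker, regulator and target lists and the rule for named genes were chosen with earlier results of these data known. Named were the 4 genes, their nearest paralogs, the 5 genes most like each, up to 5 called regulators or targets per comparison, and the exon rows with the largest shares, the most variable shares or a call. The exons printed as sequence and rows at or near 0 were named after their values were seen. Depth and marker-score comparisons of exon shares were added after seeing the data. The mice are separate animals, and p-values measure the spread between them. Values of some list members are not reported here.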

Additional observations from a re-analysis of the deposited data

How the results depend on the processing

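No regulator and none of its exon rows was called for phenotype or sex under any alternative. Over all genes, 9 were called for phenotype, against 59 with 3′ bias as a covariate, 20 with depth as a covariate, 5 among genes averaging at least 500 and 3 in deep libraries only, where 0 were called for sex (3 over all). Exon rows called for phenotype, 14 at first, were 41 with 3′ bias as a covariate, 27 without mice 63, 5, 4 and 62 and 8 in deep libraries only. Differences near 0 changed sign. The phenotype difference of Ptbp1 was 0.0036 with 3′ bias or with depth as a covariate, 0.0054 without those 4 mice and 0.0026 in deep libraries. The sex difference of Celf1 was 0.008 with edgeR upper-quartile factors and 0.004 in deep libraries, and the interaction of Rbfox1 was -0.0563 in deep libraries. The depth difference of Celf1, 0.07, was -0.0653 with 3′ bias as a covariate.

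Of the level correlations, Rbfox1 with Ptbp1 and Rbfox1 with Qk stayed past the threshold under all 10 alternatives. Rbfox1 with Celf1 was 0.25 on log2 read shares scaled by TMM and 0.50 in shallow libraries, and Qk with Celf1 -0.26 in deep libraries, each no longer past it. Celf1 with Ptbp1, near 0, was -0.0161 without mouse 63, -0.0124 without the 4 mice, -0.0912 in deep and -0.211 in shallow libraries, -0.174 with 3′ bias and -0.120 with depth removed and -0.0277 on that log2 scale. Celf1 and oligodendrocyte precursor markers had r of -0.00536 in shallow libraries, where 4 of the 32 marker relations passed against 18 over all mice. Of the Mantel correlations, Qk with Ptbp1 was 0.0611 without the 4 mice, 0.111 with 3′ bias held fixed and 0.0861 by Canberra distance without those mice. Qk with Celf1 was 0.119 by that last setting, and Celf1 with Ptbp1 0.0129 with 3′ bias held fixed. For rows averaging at least 50, Ptbp1 has 1 row and no distance.

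Exon rows called along Rbfox1 (284) were 0 with cell type scores, 138 with depth, 0 with both and 63 in deep libraries, and its target rows (5) were 0, 2, 0 and 0. Along Qk (1600) they were 221 without the 3′ bias covariate, 694 with cell type scores and 1032 with those and depth, and target rows (8) were 2, 1 and 2, and 5 for rows averaging at least 50. Along Celf1 (73) they were 37353 without the 3′ bias covariate, with 86 target rows, 137 for rows averaging at least 50, 0 with cell type scores and depth and 9 in deep libraries. Along Ptbp1 (3651) they were 516 without the 4 mice, 0 with depth, 0 with depth and cell type scores and 1 in deep libraries, and target rows (18) were 6, 0, 0 and 0. The cause of these changes was not tested. No paired analysis was possible because each mouse number occurs once. Added after seeing the data were the comparison of shallow with deep libraries, shallow libraries alone, depth removed from the correlations, the Canberra distance without the 4 mice, and depth or deep libraries only in the fits along the levels.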

Other observations

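Between shallow and deep libraries, 11 of the 22 other tissue-specific splicing regulators passed an adjusted p of 0.05 by limma, a share no higher than the 53% of all genes that did. The 7 that were higher in shallow libraries were led by Celf5 (log2 difference 0.41, SE 0.107), Nova2, a neuronal KH-domain regulator (0.34, SE 0.079), and Srrm4, which drives neuronal microexons (0.35, SE 0.139). The 4 that were lower were Khdrbs3 (-0.30, SE 0.094), Matr3 (-0.22, SE 0.048), Ptbp2 (-0.17, SE 0.046) and Mbnl2 (-0.12, SE 0.047). With 3′ bias as a covariate, 0 of the 22 were called higher and 2 lower. Ptbp1 and Ptbp2 differed in opposite directions between the depths, at 0.32 and -0.17, and with that covariate the call of Ptbp2 was lost (-0.09, adjusted p = 0.199 by limma).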
